A study of Saccharomyces cerevisiae with 11 samples.

Results

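The regions described here are the Ty elements and long terminal repeats (LTRs) of the yeast genome, taken as every mobile element and LTR annotated on the 16 nuclear chromosomes of the R64 (sacCer3) assembly. The annotation holds 434 of them among 6865 annotated genes, Ty elements and LTRs. They comprise 50 full-length Ty elements (31 Ty1, 13 Ty2, 2 Ty3, 3 Ty4 and 1 Ty5), 98 LTRs that belong to one of these elements and 286 solo LTRs. A tRNA gene lay within 500 bp of 184 of the solo LTRs, 34 of the full-length elements and 34 of the LTRs of elements, and the other 102 solo LTRs had none that close. Positions come from the annotation alone, and no measured value decided which regions are in the set. Earlier results of these data were known when it was chosen, and many of the regions named below were picked by their values.

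The study followed the co-transcriptional processing of yeast snoRNA, and 4 of its 11 samples are ChIP-seq libraries with a peak list each. Rnt1, an RNase III of the nucleus, cleaves RNA at hairpins, and Cbp20 is the small subunit of the cap-binding complex (CBC), which binds the 5ʹ cap of nascent RNA polymerase II (Pol II) transcripts. Each protein was mapped in 2 libraries through a myc tag with an anti-myc antibody, and each library pooled at least 4 immunoprecipitations. The Rnt1 strain carried RNT1-myc13::NAT and the Cbp20 strain is given as CBP80-myc13::NAT in the sample labels and as CBP80-myc13::HIS in the study's strain list. In both sources the tag of the Cbp20 libraries is thus written on the partner subunit, and they differ in its marker. Both strains were otherwise MATa his3Δ1 leu2Δ0 met15Δ0 ura3Δ0 cells grown in YPD without further treatment, and neither an untagged strain nor an input library was analysed here. The lists give a start and an end for each peak and no height, so the measure used throughout is the share of a region's bases that lie under peaks. The lists held 1238 and 1741 peaks for Rnt1 replicates 1 and 2, which covered 5.92% and 9.98% of the nuclear genome, and 3801 and 3648 peaks for Cbp20, which covered 23.1% and 21.6%. The smallest peak was 146 bp wide in both replicate 1 lists and 199 bp in both replicate 2 lists. Depth is unknown, and a base outside the peaks may still carry signal too weak to be called. The labels do not say whether the replicates came from separate cultures, so the spread between them may be technical. Whether the tagged strains carry their Ty elements at the positions of the reference strain was not tested.

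Ty elements are retrotransposons, which move through an RNA made by Pol II from 1 LTR to the other and copied back into DNA. Their genes gag and pol encode the particle protein and the protease, integrase and reverse transcriptase, and a recombination between both LTRs leaves a solo LTR behind. Ty1, Ty2 and Ty4 usually insert upstream of genes transcribed by Pol III, Ty3 inserts at the start site of such genes, and Ty5 prefers silent chromatin near telomeres.

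The LTRs of the families begin alike, and the first 40 bases of the most frequent form of each are shown to tell the families apart, with the first 6 bases in capitals. The form of Ty1 was found in 30 of 64 LTRs of Ty1 elements (printed from YBLWTy1-1, chrII:221037-221076, plus strand as for the next 3), that of Ty2 in 18 of 22 (YBLWTy2-1, chrII:29644-29683), that of Ty3 in 4 of 4 (YGRWTy3-1, chrVII:707195-707234) and that of Ty4 in 5 of 6 (YHLWTy4-1, chrVIII:91391-91430).
Ty1 LTR: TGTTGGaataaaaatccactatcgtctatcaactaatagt
Ty2 LTR: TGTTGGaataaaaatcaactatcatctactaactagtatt
Ty3 LTR: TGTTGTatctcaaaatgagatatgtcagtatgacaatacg
Ty4 LTR: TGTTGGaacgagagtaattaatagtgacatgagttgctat

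Solo LTRs of Ty3 that stand just upstream of a tRNA gene all carried Rnt1 peaks, and 4 of these junctions are shown because the peaks cross them. Each line gives the last 30 bases of the solo LTR on the side of the gene, the spacer and, in capitals, the first 20 bases of the tRNA gene, read on the strand of the gene. They are the solo LTR at chrV:434631-434971 beside a tRNA-His gene (line from chrV:434593-434660, minus strand), that at chrIV:1175134-1175812 beside EMT1 for tRNA-Met (chrIV:1175783-1175848, plus strand), that at chrIX:324391-324734 beside a tRNA-Asp gene (chrIX:324355-324420, minus strand) and that at chrXI:202644-202983 beside a tRNA-Lys gene (chrXI:202954-203018, plus strand). They are the Ty3 solo LTRs with the most bases under Rnt1 peaks.
LTR and tRNA-His gene: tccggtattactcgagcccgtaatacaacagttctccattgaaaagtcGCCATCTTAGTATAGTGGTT
LTR and EMT1: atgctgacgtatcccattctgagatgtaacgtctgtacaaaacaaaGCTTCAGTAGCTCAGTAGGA
LTR and tRNA-Asp gene: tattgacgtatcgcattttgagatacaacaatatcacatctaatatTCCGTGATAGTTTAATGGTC
LTR and tRNA-Lys gene: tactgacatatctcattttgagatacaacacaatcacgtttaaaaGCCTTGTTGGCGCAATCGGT

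Most of a Ty1 element is repeated sequence, and 2 stretches of 75 bases are shown to make this concrete. They were chosen after their values were seen. The first begins near base 2106 of the element in the pol part and was found in 28 of 31 Ty1 elements, and 30 times in the genome (printed from YBLWTy1-1, chrII:223142-223216, plus strand). The second begins near base 4897 and was found in 21 Ty1 elements and 32 times in the genome (printed from YARCTy1-1, chrI:161191-161265, minus strand).
Ty1, near base 2106: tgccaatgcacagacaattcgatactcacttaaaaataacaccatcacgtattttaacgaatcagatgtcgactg
Ty1, near base 4897: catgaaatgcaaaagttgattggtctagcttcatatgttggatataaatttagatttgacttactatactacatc

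Full-length Ty elements lay partly under the peaks of both proteins, and nearly all of that came from Ty1. Of the bases of the 50 elements, 7.22% and 28.0% were under Rnt1 peaks in replicates 1 and 2, against 24.8% and 32.2% under Cbp20 peaks. The replicates of Rnt1 stood far apart, whereas its second replicate fell between both Cbp20 values. The means were 17.6% ± 14.7 for Rnt1 and 28.5% ± 5.24 for Cbp20 (SD, n = 2 each). The difference of the means, Rnt1 minus Cbp20, was -10.9 percentage points (exact permutation test over the 4 libraries, two-sided p = 0.667), less than the gap between the Rnt1 replicates. With 2 libraries a protein this test cannot give a p below 0.333, so no difference between the proteins could pass a threshold of 0.05 here. A Rnt1 peak touched an element by at least 1 bp in both replicates in 34 of 50 (68.0%), where 40.6% of all nuclear windows of 6000 bp had one. A Cbp20 peak did so in 43 of 50 (86.0%), where 78.7% of such windows had one. With only the wider 50% of each list the Rnt1 count was 13. The plot of shares by group sets these values beside those of the LTRs.

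**Figure D1:**
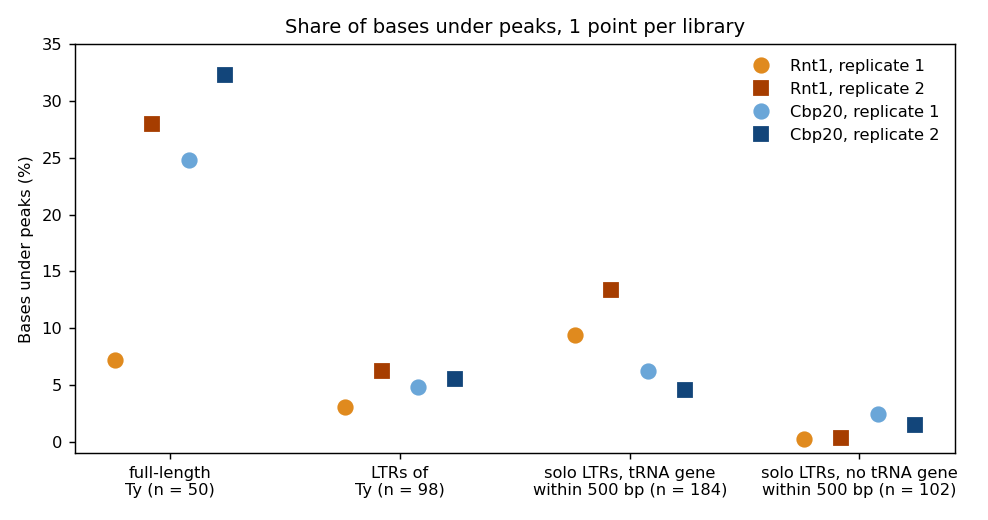
Share of bases under peaks (y axis, percent) in the 4 groups of regions, with 1 point for each library (circles, replicate 1, squares, replicate 2). Rnt1 on solo LTRs stands at 9.40% and 13.3% beside tRNA genes and at 0.287% and 0.350% away from them, and the largest gap between replicates is that of Rnt1 on full-length elements.

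Ty1, the most numerous family, carried Rnt1 peaks on 30 of 31 copies (96.8%) in both replicates and Cbp20 peaks on all 31. Of all nuclear windows of 6000 bp, 40.6% had a Rnt1 peak and 78.7% a Cbp20 peak in both. The share of Ty1 bases was 11.4% and 43.9% under Rnt1 peaks, against 36.5% and 46.6% under Cbp20 peaks. Single copies ranged from 0% to 31.5% with a median of 9.54% in Rnt1 replicate 1, from 8.48% to 75.6% with a median of 41.4% in Rnt1 replicate 2, from 19.0% to 58.7% with a median of 36.4% in Cbp20 replicate 1 and from 28.0% to 64.0% with a median of 48.4% in Cbp20 replicate 2. Every Ty1 copy had more bases under Rnt1 peaks in replicate 2 than in replicate 1, and 29 of 31 did so for Cbp20. The median of Rnt1 replicate 1 lay below the whole range of either Cbp20 list, while the ranges of Rnt1 replicate 2 and of both Cbp20 lists overlapped broadly. No Ty1 copy had more bases under Rnt1 than under Cbp20 peaks in both replicate numbers, and 18 had fewer in both.

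**Figure D2:**
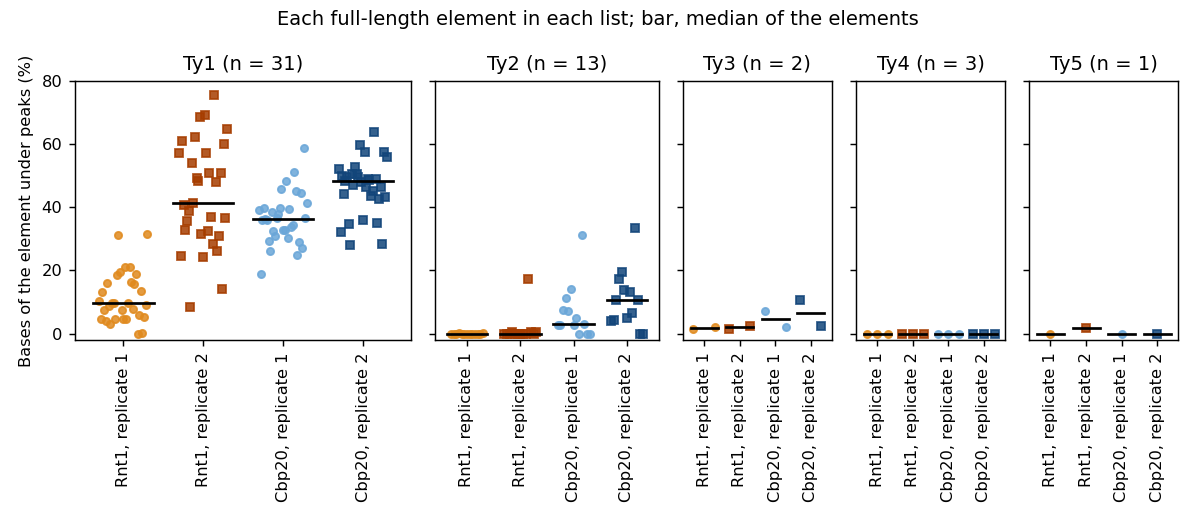
Share of each full-length element under peaks (y axis, percent) in each list, by family, with 1 point for each element and a bar at the median of the elements. The Ty1 median stands above those of the other families in all 4 lists, and the 3 Ty4 elements are at 0% in each.

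The Ty1 copies with most bases under Rnt1 peaks over both replicates were YDRWTy1-5, YLRWTy1-3 and YGRWTy1-1. In YDRWTy1-5 (chrIV:1206704-1212621) Rnt1 peaks covered 1865 and 3837 bp, and Cbp20 peaks covered 2438 and 3306 bp, of 5918 bp. In YGRWTy1-1 (chrVII:535760-541685) they covered 1255 and 4103 bp for Rnt1, and 1950 and 3403 bp for Cbp20, of 5926 bp. YLRWTy1-3 (chrXII:650824-656743) was first for Cbp20 and second for Rnt1, with 920 and 4477 bp under Rnt1 peaks and 3030 and 3788 bp under Cbp20 peaks, of 5920 bp. YDRCTy1-3 (chrIV:987150-992642) and YJRWTy1-2 (chrX:478051-483972) followed for Cbp20, with 282 and 3291 bp and 1163 and 4057 bp under Rnt1 peaks, against 3226 and 3165 bp and 2347 and 3536 bp under Cbp20 peaks. In all 5 of these copies the Rnt1 value of replicate 2 was the higher one, and in YDRCTy1-3 both Cbp20 replicates gave nearly the same length.

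YLRWTy1-3 overlaps the 3ʹ end of the annotated gene HAP1, which encodes a haem-responsive transcription factor, and it was the only Ty element whose 5ʹ LTR lay wholly under Rnt1 peaks. That LTR (chrXII:650824-651157) was covered over 334 of 334 bp in both Rnt1 replicates, against 201 and 202 bp for Cbp20. In both Rnt1 lists 1 peak ran from HAP1 across the LTR into the element (1873 and 2418 bp wide), whereas in both Cbp20 lists a peak on HAP1 ended inside the LTR and another began further in.

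Along Ty1, Cbp20 peaks lay in the 5ʹ part and Rnt1 peaks reached further towards the 3ʹ end. The inside of the 29 Ty1 elements with 2 annotated LTRs was divided into 10 parts of equal length. In the 4th part 25.6% and 85.8% of bases lay under Rnt1 peaks, against 94.4% and 95.1% under Cbp20 peaks. In the 8th part these shares were 9.94% and 30.6% for Rnt1, against 2.84% and 10.8% for Cbp20, and in the 10th part 1.48% and 11.3%, against 0.421% and 0%. Both Rnt1 lists were thus below both Cbp20 lists in the 4th part and above both in the 10th. In the 8th part Rnt1 was higher within each replicate number, but Rnt1 replicate 1 (9.94%) was below Cbp20 replicate 2 (10.8%). The last parts rest on few elements. In the 8th part 7 and 13 of 29 elements had Rnt1 peaks, against 2 and 7 for Cbp20. In the 10th part 1 and 6 did, against 1 and 0. Single-copy bases, as defined further on, made up 4.60%, 10.4% and 6.23% of these parts. The LTRs at the ends were low, with 4.58% and 9.97% for Rnt1, against 12.6% and 13.2% for Cbp20, in the 5ʹ LTR and 3.45% and 5.13%, against 0.413% and 0.341%, in the 3ʹ LTR.

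The profile in steps of 100 bp, which was drawn for the 27 Ty1 elements of at least 5800 bp, showed 2 stretches of Cbp20 peaks with a break between them. From 400 to 500 bp after the 5ʹ end, 7.78% and 56.6% of bases lay under Rnt1 peaks, against 95.0% and 100% under Cbp20 peaks. From 900 to 1000 bp these shares were 2.37% and 7.89% for Rnt1, against 0% and 0% for Cbp20. Rnt1 replicate 2 thus fell there as well. Rnt1 replicate 1 was low before it too, with 10.7% from 500 to 600 bp, so little of a break can be read from that list. From 2000 to 2100 bp they were 36.0% and 83.0% for Rnt1, against 94.7% and 97.6% for Cbp20. From 4800 to 4900 bp, 5.44% and 18.5% of bases lay under Rnt1 peaks, whereas from 4700 to 5800 bp, where the profile ends, none lay under Cbp20 peaks in either replicate.

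**Figure D3:**
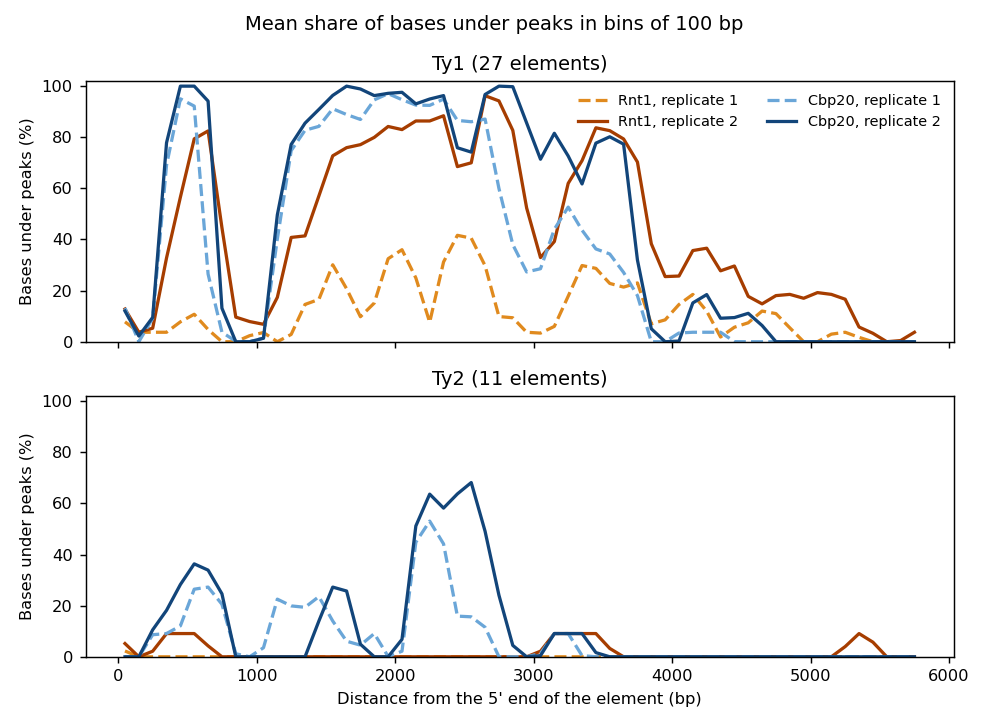
Mean share of bases under peaks (y axis, percent) in bins of 100 bp from the 5ʹ end of the element (x axis, bp), for 27 Ty1 elements above and 11 Ty2 elements below, with 1 line for each list (broken, replicate 1, solid, replicate 2). Cbp20 on Ty1 reaches 100% in replicate 2 between 400 and 600 bp, and from 4700 to 5800 bp both Cbp20 lists are at 0%.

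Averaged over the Ty1 copies, Rnt1 peaks covered more of pol than of gag, and Cbp20 peaks covered more of gag than of pol, in both replicates. In the 29 Ty1 elements with both genes annotated, gag averaged 6.53% and 37.8% under Rnt1 peaks, against 51.4% and 59.9% under Cbp20 peaks. The part of the pol reading frame outside gag averaged 14.6% and 51.1% under Rnt1 peaks, against 36.3% and 48.7% under Cbp20 peaks. Some copies went the other way for either protein, and the ranges overlapped. In Rnt1 replicate 2 they ran from 0% to 83.2% in gag and from 7.29% to 86.6% in pol. A Rnt1 peak touched gag in 12 and 24 copies and pol in 27 and 29 copies. The median length was 1323 bp for gag and 3946 bp for this part of pol. A longer part is touched more often by its length alone, so nothing is read from these counts.

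The repeated stretches printed above are described copy by copy, and nothing is read from their counts, since the stretch near base 2106 was picked for its high share of copies under peaks. The 75 bases near base 2106 lay wholly under Rnt1 peaks in 6 and 25 of 28 copies, against 28 of 28 under Cbp20 peaks in both replicates. The 75 bases near base 4897 lay under Rnt1 peaks in 0 and 3 of 21 copies, against 0 of 21 under Cbp20 peaks in both replicates. Because these copies are identical over 75 bases, a read that lies within such a stretch cannot be placed in 1 copy from that stretch alone. The methods describe read pairs and a filter for unique reads, and the read length is not given in the sources used here.

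Rnt1 recognises hairpins capped by a loop that begins with A and G, and such letters were searched for in the Ty elements. The motif AGNN was searched on the strand of the element, closed on both sides by at least 6 uninterrupted pairs, G with T counted as a pair. It was found in 15 of 31 Ty1 (48.4%), 1 of 13 Ty2, 2 of 2 Ty3, 0 of 3 Ty4 and 0 of 1 Ty5 elements, where 66.4% of nuclear windows of 6000 bp held one on the plus strand. The Ty1 form is printed with its loop in capitals, and the loop began between bases 5494 and 5608 of the element.
Ty1 hairpin: tattgcAGACgtaatg
None of the 15 copies of this hairpin lay wholly under a peak in any of the 4 lists. Peaks were rare at this position in Ty1 as a whole. In the 27 profiled elements, 0% and 3.30% of bases from 5400 to 5500 bp lay under Rnt1 peaks, against 0% and 0% under Cbp20 peaks. Nothing about the hairpin is therefore read from this count. A match of these letters is a description and not a cleavage site.

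Ty2, the closest relative of Ty1, carried few Rnt1 peaks. Its 13 elements had 0.0328% and 1.48% of bases under Rnt1 peaks, against 6.77% and 10.6% under Cbp20 peaks. A Rnt1 peak was present in both replicates in 2 of 13 elements, YDRWTy2-3 with 11 and 24 bp and YDRCTy2-1, named after its values were seen, with 14 and 33 bp. A Cbp20 peak was present in both replicates in 10 of 13 (76.9%), close to the 78.7% of nuclear windows of 6000 bp. The 2 of 13 for Rnt1 (15.4%) compare with 40.6% of such windows. In Cbp20 replicate 1 the Ty2 elements other than YLRWTy2-1 lay between 0% and 14.2%, below the lowest Ty1 copy at 19.0%.

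YLRWTy2-1 (chrXII:941192-947150) was the Ty2 element with most bases under peaks and was chosen after its values were seen. Its share was 0% and 17.4% under Rnt1 peaks, against 31.1% and 33.5% under Cbp20 peaks. Several Ty2 elements had no base under the peaks of a protein. YLRCTy2-2 (chrXII:976258-981700) had none under any of the 4 lists, and YDRWTy2-3 (chrIV:981171-987125) had none under either Cbp20 list. YGRCTy2-1, YORCTy2-1 and YBLWTy2-1 had none under Rnt1 peaks in either replicate, and had 844 and 831 bp, 170 and 298 bp, and 167 and 234 bp under Cbp20 peaks. YDRWTy2-2 had no base under Rnt1 peaks, and had 0 and 383 bp under Cbp20 peaks. As in Ty1, the Cbp20 peaks of Ty2 lay towards the 5ʹ end, where the 4th inside part averaged 26.8% and 36.4% and the parts from the 7th to the 10th averaged 0%. Over the 24.5% of Ty2 bases that lie in a stretch of 75 bases shared with Ty1, Cbp20 peaks covered 0.294% and 0.315%, and over the other Ty2 bases 8.88% and 14.0%.

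The remaining families were low. The Ty3 elements YGRWTy3-1 (chrVII:707195-712545) and YILWTy3-1 (chrIX:205220-210647) lie 15 and 17 bp upstream of a tRNA gene. YGRWTy3-1 had 118 and 133 bp under Rnt1 peaks, against 105 and 125 bp under Cbp20 peaks, and YILWTy3-1 had 75 and 84 bp, against 384 and 569 bp. In both elements the Rnt1 bases lay in the LTR beside the tRNA gene and the inside parts had none, whereas YILWTy3-1 also had Cbp20 peaks in its 3rd and 4th inside parts. The 3 Ty4 elements YHLWTy4-1, YJLWTy4-1 and YPLCTy4-1 had no base under a peak in any list, although 2 of them lie 159 and 167 bp upstream of a tRNA gene. The Ty5 element YCLWTy5-1 near the left end of chromosome III had 0 and 50 bp under Rnt1 peaks, in its 5ʹ LTR, and none under Cbp20 peaks.

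A tRNA gene nearby was not accompanied by more peak bases on full-length Ty1. The 22 Ty1 elements with a tRNA gene within 500 bp had 9.31% and 41.9% of bases under Rnt1 peaks, and the 9 without one had 16.5% and 48.8%. For Cbp20 the values were 36.3% and 46.1% near a tRNA gene, and 37.1% and 47.9% away from one. Both differences were smaller than the gap between the replicates of the same protein.

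The 98 LTRs at the ends of elements had 3.07% and 6.22% of bases under Rnt1 peaks, against 4.85% and 5.50% under Cbp20 peaks (difference of the means -0.534 percentage points, exact permutation p = 1.00). Rnt1 was lower than Cbp20 in replicate 1 and higher in replicate 2. Rnt1 peaks were found in both replicates on 12 of 98 of them (12.2%) and Cbp20 peaks on 21 of 98 (21.4%). Of the 34 with a tRNA gene within 500 bp, 11 carried a Rnt1 peak in both replicates, where 45.9% of windows of 300 bp that close to a tRNA gene did. Of the 64 with none that close, 1 did, the HAP1-side LTR of YLRWTy1-3, where 7.11% of such windows did. For Cbp20 these counts were 10 of 34, where 30.0% of windows did, and 11 of 64, where 26.5% of windows did. The windows near a tRNA gene include those on the gene itself, so they are not matched to LTRs in position.

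Solo LTRs separated by their distance to a tRNA gene. Of the bases of the 184 solo LTRs with a tRNA gene within 500 bp, 9.40% and 13.3% lay under Rnt1 peaks, against 6.27% and 4.61% under Cbp20 peaks. Of the bases of the 102 solo LTRs with none that close, 0.287% and 0.350% lay under Rnt1 peaks, against 2.43% and 1.54% under Cbp20 peaks. The lists did not overlap between these groups, with both Rnt1 lists higher near tRNA genes by 9.12 percentage points or more and both Cbp20 lists by 3.07 or more. A Rnt1 peak was present in both replicates on 78 of 184 (42.4%) near a tRNA gene, close to the 45.9% of windows of 300 bp there, and on 2 of 102 (1.96%) elsewhere, below the 7.11% of windows. A Cbp20 peak was present in both replicates on 31 of 184 (16.8%) and on 4 of 102 (3.92%), both below the 30.0% and 26.5% of windows. The windows near a tRNA gene include those on the gene itself, whereas solo LTRs mostly lie beside it. The 45.9% and 30.0% are therefore not matched to the solo LTRs in position. Rnt1 exceeded Cbp20 on solo LTRs near tRNA genes by 5.93 percentage points of the means (exact permutation p = 0.333, the smallest this design allows), and both Rnt1 lists were above both Cbp20 lists. Away from tRNA genes the difference was -1.67 percentage points (exact permutation p = 0.333), with both Rnt1 lists below both Cbp20 lists.

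Every Rnt1 peak on a solo LTR near a tRNA gene also overlapped a tRNA gene. This held for 78 of 78 solo LTRs in replicate 1 and 96 of 96 in replicate 2, and for 45 of 49 and 32 of 34 of those with a Cbp20 peak. In the same sense the base of the solo LTR that faces the tRNA gene lay under the peak in 78 of 78 and 96 of 96 solo LTRs for Rnt1, against 46 of 49 and 32 of 34 for Cbp20. The median length covered was 55.5 and 66.5 bp for Rnt1, against 60.0 and 74.5 bp for Cbp20, and the whole solo LTR was covered in 6 and 7 cases for Rnt1, against 4 and 3 for Cbp20. It follows from these counts that no base of the 184 solo LTRs remained under Rnt1 peaks once peaks that overlap a tRNA gene were left out. A Rnt1 peak on such a solo LTR therefore cannot be told apart from the edge of a peak on the gene beside it.

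The share under Rnt1 peaks fell with the gap between the solo LTR and the tRNA gene. At 0 to 50 bp, all 36 solo LTRs had Rnt1 peaks in both replicates, with 35.6% and 40.6% of bases under Rnt1 peaks, against 23.0% and 17.2% under Cbp20 peaks. At 51 to 100 bp, 26 of 27 did, with 11.8% and 21.8%, against 2.61% and 1.45%. At 101 to 200 bp, 16 of 63 did, with 1.72% and 5.99%, against 0.880% and 0.629%. At 201 to 500 bp, none of 58 had a base under a Rnt1 peak in either replicate, and Cbp20 peaks covered 3.32% and 2.54%. The solo LTRs lay upstream of the tRNA gene in 174 of 184 cases, and none of the 10 on the downstream side had a Rnt1 peak in both replicates.

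**Figure D4:**
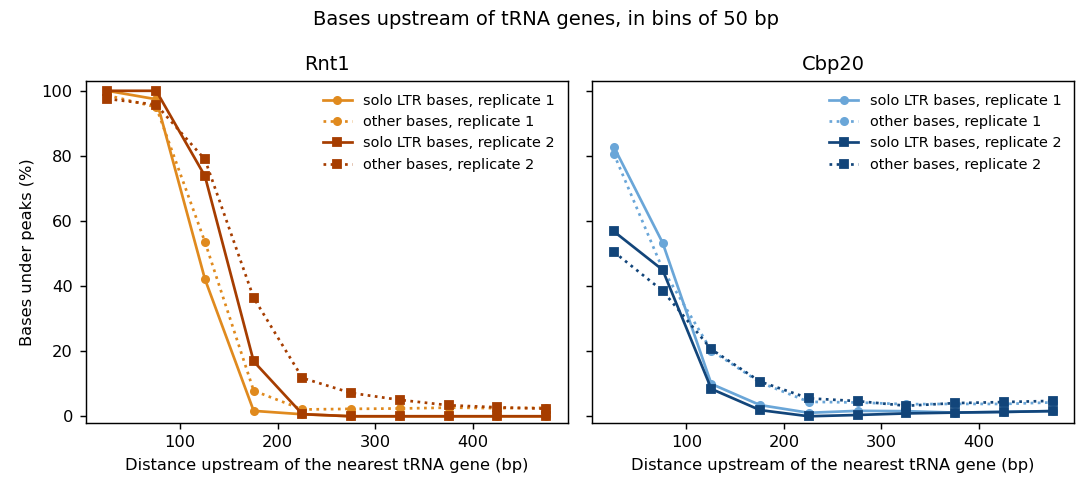
Share of bases under peaks (y axis, percent) by distance upstream of the nearest tRNA gene (x axis, bp, bins of 50 bp), for solo LTR bases (solid) and for bases of no Ty element, LTR or tRNA gene (dotted), in each replicate. For Rnt1 both kinds of base start near 100%, and beyond 250 bp solo LTR bases are at 0% in both replicates.

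Bases of solo LTRs and other bases at the same distance upstream of a tRNA gene differed little close to the gene. From 1 to 50 bp, 100% and 100% of solo LTR bases lay under Rnt1 peaks, and 98.6% and 97.5% of bases outside Ty elements and LTRs. From 101 to 150 bp these shares were 42.2% and 73.8% for solo LTR bases, and 53.6% and 78.9% for the other bases. From 151 to 200 bp they were 1.66% and 16.9%, and 7.87% and 36.4%. Solo LTR bases were thus above other bases next to the gene and below them from 101 bp on, in both replicates. For Cbp20, 82.8% and 56.8% of solo LTR bases from 1 to 50 bp lay under peaks, and 80.7% and 50.5% of the other bases, while from 101 to 150 bp the shares were 9.94% and 8.41%, and 20.2% and 20.6%.

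The closest solo LTRs were nearly all of Ty3. Of the 35 Ty3 solo LTRs with a tRNA gene within 500 bp, 34 lay within 50 bp, all on the upstream side, and 32 of these had a gap of 14 to 18 bp. All 34 carried Rnt1 peaks in both replicates, which covered between 55 and 217 bp with a median of 105.5 bp in replicate 1, and between 67 and 192 bp with a median of 112.5 bp in replicate 2. Cbp20 peaks were found on 20 of 34 in both replicates, on 9 in replicate 1 alone and on 5 in neither. The other Ty3 solo LTR of this group, 379 bp from its tRNA gene (chrXIV:546423-546714), had none under any list. Ty1 solo LTRs near a tRNA gene stood further off, with a median gap of 166 bp in 129 copies, and 39 of them had Rnt1 peaks in both replicates. Of 15 Ty4 and 5 Ty2 solo LTRs, 2 and 3 had them. The families therefore differ in Rnt1 share together with their gap, and family and gap cannot be told apart for Ty3.

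Among single solo LTRs the Ty3 copy beside the tRNA-His gene had the most bases under Rnt1 peaks, with 217 and 192 of 341 bp, against 107 and 99 bp under Cbp20 peaks. Its junction is the first of those printed above. The copy beside EMT1 had 109 and 183 of 679 bp under Rnt1 peaks, against 102 and 134 bp under Cbp20 peaks. The Ty1 solo LTR at chrIII:142758-143080, which overlaps the frameshift suppressor tRNA gene SUF16, was the only Ty1 copy among the first 8, with 121 and 167 of 323 bp under Rnt1 peaks, against none under Cbp20 peaks. The copy beside the tRNA-Asp gene had 120 and 164 of 344 bp, against 59 and 0 bp, and that beside the tRNA-Lys gene had 128 and 141 of 340 bp, against 82 and 119 bp. In the other 3 of the first 8, Rnt1 peaks covered between 98 and 168 bp of 338 to 341 bp, and Cbp20 peaks between 0 and 116 bp. All 8 had Rnt1 peaks in both replicates, and 5 of the 8 had Cbp20 peaks in both.

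The longest solo LTRs near a tRNA gene without a Rnt1 peak were 1 Ty1 and 7 Ty4 copies, of 356 to 667 bp, and none of them had a base under Cbp20 peaks either. Their gaps to the tRNA gene ran from 147 to 409 bp. The Ty1 copy was that at chrX:354538-355204, and the longest Ty4 copies were those at chrII:643488-643858 and chrV:354360-354730.

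Of the solo LTRs with no tRNA gene within 500 bp, the 2 with a Rnt1 peak in both replicates stood beside other genes transcribed by Pol III. The Ty1 solo LTR at chrXII:365810-366144 lies 90 bp upstream of SNR6, the gene of U6 spliceosomal RNA, and had 48 and 45 of 335 bp under Rnt1 peaks, against none under Cbp20 peaks. The Ty1 solo LTR at chrV:431490-431822 lies 269 bp upstream of SNR52, the gene of a box C/D snoRNA, and had 29 and 49 of 333 bp, against none. In both cases the same peak covered the gene in each replicate. The 4 with a Cbp20 peak in both replicates, which were named after their values were seen, all stood at the 5ʹ side of a full-length Ty1 element. Those at chrVII:535211-535542 and chrVII:535607-535759 lie 217 and 0 bp from YGRWTy1-1 and shared 1 peak, which overlapped no annotated gene and covered 332 and 332 of 332 bp of one and 116 and 59 of 153 bp of the other. That at chrII:220895-221036 had 142 and 13 of 142 bp under a peak that began in the gene PDR3, a regulator of drug resistance, and that at chrV:449274-449626 had 62 and 9 of 353 bp. None of these 4 had a base under Rnt1 peaks.

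The replicates of Rnt1 differed more on repeated than on single-copy bases of Ty elements and LTRs. A base was called single-copy when it lies in at least 1 stretch of 75 bases found once in the genome, which holds for 95.4% of the nuclear genome but for 9.17% of Ty1, 15.6% of Ty2 and 88.1% of solo LTR bases near tRNA genes. Of the repeated bases of Ty elements and LTRs, 7.80% and 30.4% lay under Rnt1 peaks in replicates 1 and 2, against 26.9% and 34.9% under Cbp20 peaks. Of their single-copy bases, 5.36% and 9.42% lay under Rnt1 peaks, against 6.53% and 6.37% under Cbp20 peaks. Replicate 2 was thus 3.90 times replicate 1 for Rnt1 on repeated bases and 1.76 times on single-copy bases, where it was 1.59 times on single-copy bases outside Ty elements and LTRs. For Cbp20 these ratios were 1.30, 0.977 and 0.911. The pools differ in make-up, since Ty1 elements hold 165869 of the 256839 repeated bases and solo LTRs hold 70897 of the 114009 single-copy ones. Within Ty1 the Rnt1 ratio was 3.93 on repeated and 2.69 on single-copy bases. On repeated bases outside Ty elements, LTRs and rRNA repeats the ratio was 2.01 for Rnt1 and 1.79 for Cbp20. Solo LTRs went the other way for Rnt1, with 5.08% and 5.23% on repeated bases and 6.61% and 9.55% on single-copy bases. The rRNA repeats from RDN25-1 to RDN5-2 on chromosome XII, which are not among the regions described, lay at 0% in both replicate 1 lists and at 100% in both replicate 2 lists.

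**Figure D5:**
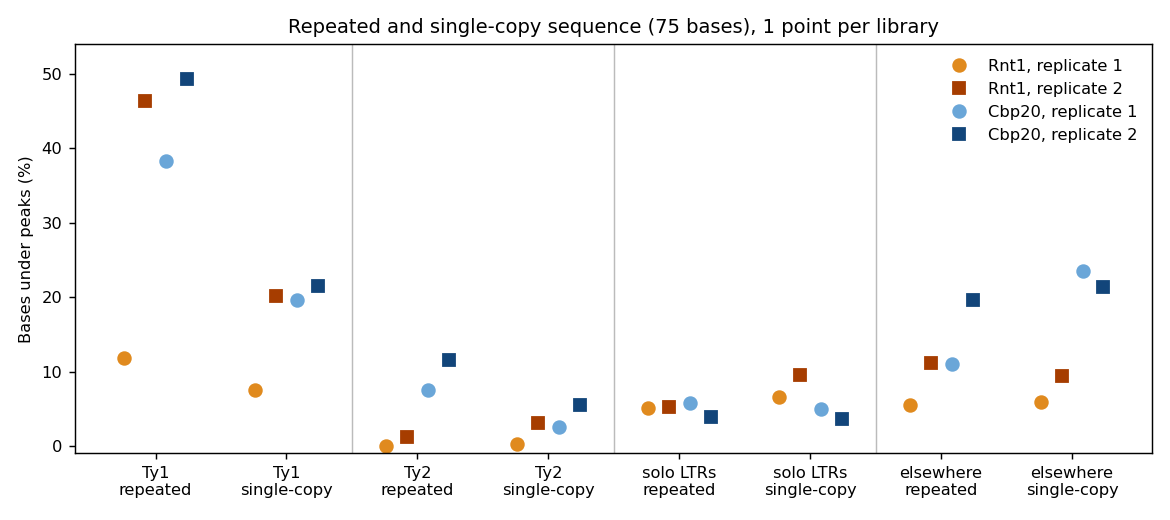
Share of repeated and of single-copy bases under peaks (y axis, percent), with 1 point for each library, for full-length Ty1, full-length Ty2, solo LTRs and the nuclear genome outside Ty elements, LTRs and rRNA repeats. On repeated Ty1 bases Rnt1 stands at 11.8% in replicate 1 and 46.4% in replicate 2, and Cbp20 at 38.3% and 49.2%.

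Single-copy bases of Ty1 gave lower shares than repeated ones, and the order of the lists was the same. On the 16777 single-copy bases of the 31 Ty1 elements, 7.47% and 20.1% lay under Rnt1 peaks, against 19.6% and 21.5% under Cbp20 peaks. On the 165869 repeated bases, 11.8% and 46.4% lay under Rnt1 peaks, against 38.3% and 49.2% under Cbp20 peaks. In the 29 Ty1 elements divided into parts, single-copy bases made up 32.3% of the 5ʹ LTR and 23.3% of the 3ʹ LTR. They made up at most 11.4% of any inside part. The LTRs carried few peaks, as did the last inside parts, whereas Cbp20 peaks covered 94.4% and 95.1% of the 4th inside part. Position and copy number were not separated, so the role of each in the lower shares was not tested. For comparison, single-copy bases outside Ty elements, LTRs and rRNA repeats had 5.90% and 9.37% under Rnt1 peaks, against 23.5% and 21.4% under Cbp20 peaks.

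Many peaks within Ty elements held no single-copy base at all. Of the peaks that lay wholly within a Ty element or LTR, this was so for 67 of 73 and 85 of 109 Rnt1 peaks, against 90 of 114 and 86 of 122 Cbp20 peaks. How read pairs with several matches were placed bears on such peaks, and its part in the values was not tested. Over Ty1, the replicates shared 18944 bp of 20850 bp in Rnt1 replicate 1 (90.9%) and of 80298 bp in Rnt1 replicate 2 (23.6%), against 62200 bp of 66779 bp (93.1%) and of 85274 bp (72.9%) for Cbp20. Peaks of the smaller Rnt1 list on Ty1 were thus mostly contained in the larger one. Over solo LTRs the Rnt1 replicates shared 4906 bp, which was 96.5% of the bases in replicate 1 and 68.3% of those in replicate 2.

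Single regions with the largest gap between replicates were of both kinds. For Rnt1 these were the Ty1 elements YLRWTy1-3, YERCTy1-1, YDRCTy1-3 and YHRCTy1-1 and a solo LTR of 28 bp at chrIV:520806-520833. YERCTy1-1 had 280 and 3693 of 5924 bp under Rnt1 peaks, against 1826 and 3118 bp under Cbp20 peaks, and YHRCTy1-1 had 269 and 3446 of 6028 bp, against 2904 and 2805 bp. For Cbp20 all 5 were solo LTRs, such as the Ty3 copy at chrXIV:102632-102700 with 69 and 69 of 69 bp under Rnt1 peaks, against 69 and 0 bp under Cbp20 peaks. The Ty3 copy at chrXVI:856545-856885 had 126 and 103 of 341 bp under Rnt1 peaks, against 324 and 77 bp under Cbp20 peaks.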

How the data were processed

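Peak positions of 4 ChIP-seq libraries were used, and the other 7 samples of the series were not analysed here. Per the methods, the authors aligned read pairs with Bowtie2 to sacCer3, kept unique reads of mapping quality 30 or more, and called peaks with MACS2 at q below 0.05. The deposited values are a start and an end in bp for each peak, 1 list for each library, with no count, score or height. Read length, tool versions and the use of an input are not given in the sources used here, nor is whether all replicates were processed alike. Regions and tRNA genes came from the RefSeq annotation of R64, the same assembly as sacCer3. The share of bases under peaks was computed in Python 3.11.15 with numpy 2.4.6, pandas 2.3.3 and scipy 1.17.1, and the step was tested on simulated data. Proteins were compared over libraries by a two-sided exact permutation test of the difference of means. Named regions are every Ty3, Ty4 and Ty5 element, the 3 Ty1 or Ty2 elements with most and with fewest bases under peaks of each protein, up to 8 solo LTRs with most Rnt1 bases near and away from tRNA genes, up to 8 of the longest near ones with none, and the 5 regions with the largest replicate gap. Regions and groups were chosen with earlier results of these data known. The printed Ty1 stretches and the hairpin stem length were chosen after values were seen. Alternatives were other tRNA distances, overlaps, peak sets and single-copy definitions, the mean over regions, regions under 100 bp left out, and each replicate left out.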

Additional observations from a re-analysis of the deposited data

How the results depend on the processing

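Of 166 alternative values for 24 results, 108 stayed within the spread of the replicates or within 1.5 times the count, 53 moved and 5 reversed. Leaving out a replicate cannot move a mean share beyond that spread, and without those settings 74 of 130 stayed. A wide spread also hides shifts. Rnt1 on full-length elements went from 17.6% to 5.886%, 6.24% and 7.578% on bases single-copy at 50, 75 and 150 bases, which counted as within it. Values that moved are given as mean percent of bases or as counts of regions with a peak in both replicates. When only peaks that overlap no tRNA gene were kept, Rnt1 fell to 1.959% of LTRs of elements (1 region) and to 0.0% of solo LTRs near tRNA genes (0 regions), and Cbp20 to 3.767% and 0.9126% (2 solo LTRs). The difference between solo LTRs near and not near a tRNA gene then reversed, to -0.3184 points for Rnt1 and -1.07 points for Cbp20. By construction this setting removes the peaks on the tRNA genes beside the solo LTRs. When the wider 50% of each list was kept, Rnt1 covered 3.914% of solo LTRs near and 0.229% of those not near a tRNA gene, with 13 full-length elements, 4 LTRs of elements, 17 near and 1 not-near solo LTRs called, and Cbp20 covered 20.69% of full-length elements, 1.08% of their LTRs, 0.8609% of near and 1.255% of not-near solo LTRs, with 3, 2 and 2 of the last 3 groups called. When at least 50% of a region had to lie under peaks, the calls were 0, 1, 9 and 0 for Rnt1 and 2, 1, 5 and 1 for Cbp20, in full-length elements, their LTRs, near and not-near solo LTRs. With near meaning 250 bp, Rnt1 covered 14.6% of near and 0.2213% of not-near solo LTRs, with differences of 14.38 points for Rnt1 and 4.631 points for Cbp20. With 1000 bp, not-near solo LTRs had 0.5093% for Rnt1 and 3.172% for Cbp20, and the Cbp20 difference was 1.403 points. The mean over regions was 14.17% for Rnt1 and 7.165% for Cbp20 in near solo LTRs, and 0.2509% for Rnt1 in not-near ones. On bases that are single-copy at 50 and 75 bases, Rnt1 covered 10.36% and 9.364% of LTRs of elements. At 50, 75 and 150 bases, Cbp20 covered 9.408%, 10.02% and 12.38% of full-length elements and 9.082%, 8.215% and 5.663% of their LTRs, and at 50 bases 1.271% of not-near solo LTRs. The gap between replicates, replicate 2 minus replicate 1 over all regions, was 16.9 points for Rnt1 on all bases, and 3.757, 4.06 and 4.733 points on bases single-copy at 50, 75 and 150 bases. For Cbp20 it was 5.53 points, and -0.4852, -0.1509 and 0.7409 points. The cause was not tested.

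Leaving out a replicate, Rnt1 calls ranged from 34 to 38 full-length elements, 13 to 26 of their LTRs, 78 to 96 near and 2 to 2 not-near solo LTRs, and Cbp20 calls from 43 to 44, 25 to 26, 34 to 49 and 4 to 4. The labels number only the second replicate, so the number is not known to pair the libraries. The differences between libraries of the same number (replicate block), Rnt1 minus Cbp20, were -17.6 and -4.25 points in full-length elements, -1.78 and 0.7125 in their LTRs, which reversed, 3.13 and 8.73 in near and -2.14 and -1.19 in not-near solo LTRs. Depth, peak height and read length are unknown, so a missing peak does not show that signal is absent.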

Other observations

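Of 275 nuclear tRNA genes, 7 lacked a Rnt1 peak in at least 1 replicate, and they were named after their values were seen. Of the 173 tRNA genes with a Ty element or LTR within 500 bp, 167 (96.5%) had a Rnt1 peak in both replicates and 90 (52.0%) had a Cbp20 peak in both. Of the 102 with none, 101 (99.0%) and 53 (52.0%) did. Among the 7 were SUP53, which lies 89 bp from the Ty2 element YCLWTy2-1, and TRT2, which has no Ty element or LTR that close. SUP53 had 0 and 0 bp under Rnt1 peaks, and TRT2 had 72 and 0 bp. Whether the tagged strains carry SUP53 was not tested. The Pol III genes RPR1, SCR1, SNR6 and SNR52, which encode the RNA of RNase P, the RNA of the signal recognition particle, U6 RNA and a box C/D snoRNA, each lay wholly under Rnt1 peaks in both replicates and each had a Ty element or LTR within 500 bp. The RDN5 genes, also transcribed by Pol III, differed. RDN5-1, RDN5-2 and RDN5-4 lay at 0% and 100% under Rnt1 peaks in replicates 1 and 2, and RDN5-3 at 95.0% and 100%. RDN5-5 and RDN5-6 lay at 100% in both. Of the RDN5 genes only RDN5-4 had a Ty element or LTR within 500 bp.

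A few solo LTRs near a tRNA gene had Cbp20 peaks apart from that gene, and these too were named after their values were seen. The Ty1 solo LTR at chrXII:657449-657767 lies 442 bp from its tRNA gene and had 138 and 150 bp under Cbp20 peaks that overlapped no gene, and no base under Rnt1 peaks. The Ty1 solo LTR at chrXII:818073-818403 had 297 and 260 bp under Cbp20 peaks, the first of which reached the gene GAS2, and no base under Rnt1 peaks.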
